A study of Danio rerio with 6 samples.

Results

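Genes of the solute carrier families that move amino acids, peptides and related small molecules across membranes were examined in dissected guts of germ-free (GF) zebrafish larvae. The members were all genes of the count table whose symbol starts with *slc1a*, *slc3a*, *slc6a*, *slc7a*, *slc15a*, *slc16a*, *slc38a* or *slc43a*, which gave 76 of 15419 genes. Symbols starting with *slc36a* belong to the same rule and were not analysed here, and neither were *slc3a1*, *slc7a9* and *slc15a1a*. The rule reads symbols only. It therefore also takes in carriers of lactate, creatine, taurine and neurotransmitters, and *slc7a6os*, which is named for lying on the opposite strand to *slc7a6* and is not known as a carrier. Guts from 5-dpf (days post-fertilization) wild-type larvae (WT GF) were compared with guts from *il26*-/- larvae (il26-/- GF), with 3 libraries in each group and 10 to 15 pooled guts in each library. The *il26*-/- fish are 1 mutant line with a CRISPR/Cas9 deletion in the gene of the cytokine interleukin-26. Larvae of both groups were bleached as eggs and raised in sterile medium with antibiotics. The WT and *il26*-/- parents were clutchmates kept in separate tanks, so genotype and parental tank cannot be told apart.

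Dietary protein reaches enterocytes as free amino acids and as di- and tripeptides. Carriers in the brush border take these up with sodium or protons, and other carriers in the basolateral membrane release them to the blood. Some carriers work as heterodimers, in which a heavy chain of the slc3 family brings a light chain of the slc7 family to the membrane. Carriers on lysosomes return amino acids from digested protein to the cytosol.

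Total counts ranged from 7528412 to 38143258 per library, and a level corresponding to 3 counts lay between 0.0765 and 0.369 CPM (the read count of a gene relative to library size, scaled between libraries by the TMM method), which covers counting error only. The targeted gene *il26* had 0 counts in every library of both groups, so the genotype labels could not be checked by it. Summed markers of enterocytes ranged from 36560 to 44120 CPM, although 1 of the 8, *fabp2*, stood between 0.485 and 0.839 CPM. The dissected tissue also held exocrine pancreas (38160 to 62490 CPM over 14 markers) and liver (2731 to 8772 CPM over 11 markers). Skeletal muscle markers summed to 1282 to 2327 CPM in WT GF and 2083 to 3267 CPM in il26-/- GF. Of the 16 muscle markers tested, 9 were higher in il26-/- GF at an unadjusted p-value under 0.05 (edgeR), against 3.06% of all genes. After adjustment over all genes tested, 0 of these markers had a p-value under 0.05. A log2 fold change below 0 was found for 3 of the 16. The part of these tissues in the results below was not tested, except where a value is given.

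The 76 members held between 0.671% and 0.792% of the counts of each library. Most of these reads came from few genes. The 10 members with the most reads took between 83.6% and 87.6% of the members' reads in each library. The peptide carrier *slc15a1b* alone took 29.8% to 39.0%, and its mean CPM placed it at rank 55 of the 15419 genes. It was followed by *slc43a2b* at rank 141 and *slc6a19b* at rank 176. These ranks count reads and are not corrected for transcript length, so they do not compare numbers of transcripts between genes. By family, the peptide carriers of slc15a took 39.6% of the members' reads in WT GF and 40.1% in il26-/- GF, slc6a genes took 21.6% and 22.8%, and slc43a genes took 17.8% and 15.6%.

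**Figure D1:**
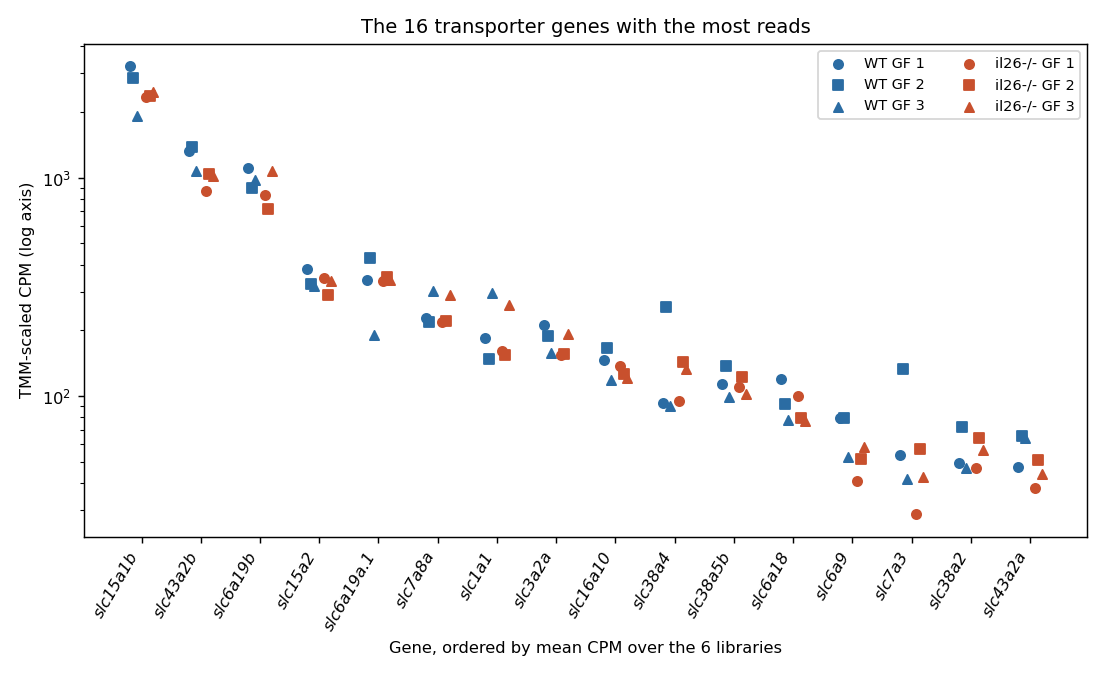
TMM-scaled CPM on a log axis for the 16 members with the most reads, with 1 point per library (blue, WT GF; orange, il26-/- GF; the marker shape gives the replicate number). *slc15a1b* stood between 1913 and 3233 CPM, and the groups overlapped for each gene shown except *slc43a2b*.

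Enough reads for a test, by edgeR's default filter, were present for 56 of the 76 members. None of the 56 differed between il26-/- GF and WT GF after adjustment over the 11062 genes tested. The lowest adjusted p-value of a member was 0.833 in edgeR's quasi-likelihood test, and DESeq2 also called 0 members. Over all genes tested, 0.00904% were called. At an unadjusted p-value under 0.05, edgeR's test gave 4 members lower in il26-/- GF, *slc43a2b*, *slc43a2a*, *slc1a5* and *slc6a9*, and 1 higher, *slc6a14*. That is 8.93% of the members tested, against 5.32% of all genes tested in either direction. By direction, 7.14% of the members and 2.27% of all genes were lower, and 1.79% of the members and 3.06% of all genes were higher. The number of members depended on single libraries. It was 0 without il26-/- GF replicate 1, 2 without WT GF replicate 1 and 3 without WT GF replicate 2, where 3.95%, 4.58% and 4.93% of all genes passed. Without WT GF replicate 3 it was 13, and 10.2% of all genes passed. The normalized levels of the groups did not overlap for 2 members that were lower, *slc43a2b* and *slc1a5*, and 1 that was higher, *slc6a7*. These are 3.57% and 1.79% of the members tested, while 4.83% of all genes tested were lower and 4.81% higher without overlap. In whole-gut RNA, fewer cells of a type and less RNA per cell cannot be told apart.

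Fold changes of the members were small, and more of them lay below than above 0. Of the 56 members, 37 (66.1%) had a log2 fold change below 0, against 50.4% of all genes tested. The median log2 fold change was -0.074 for the members and -0.0011 for all genes tested. Without WT GF replicate 2 the median of the members was 0.016. With all libraries, log2 fold changes below 0 were also found for 6 of the 8 enterocyte markers (median -0.092). The same held for 12 of 13 exocrine pancreas markers tested (-0.17) and 13 of 14 neuron markers (-0.19). It held for 2 of 11 hepatocyte markers (0.18) and 3 of 16 skeletal muscle markers (0.77). The 95% confidence interval stayed between -1 and 1 for 42 of the 56 members, and between -0.5 and 0.5 for 16 of them.

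**Figure D2:**
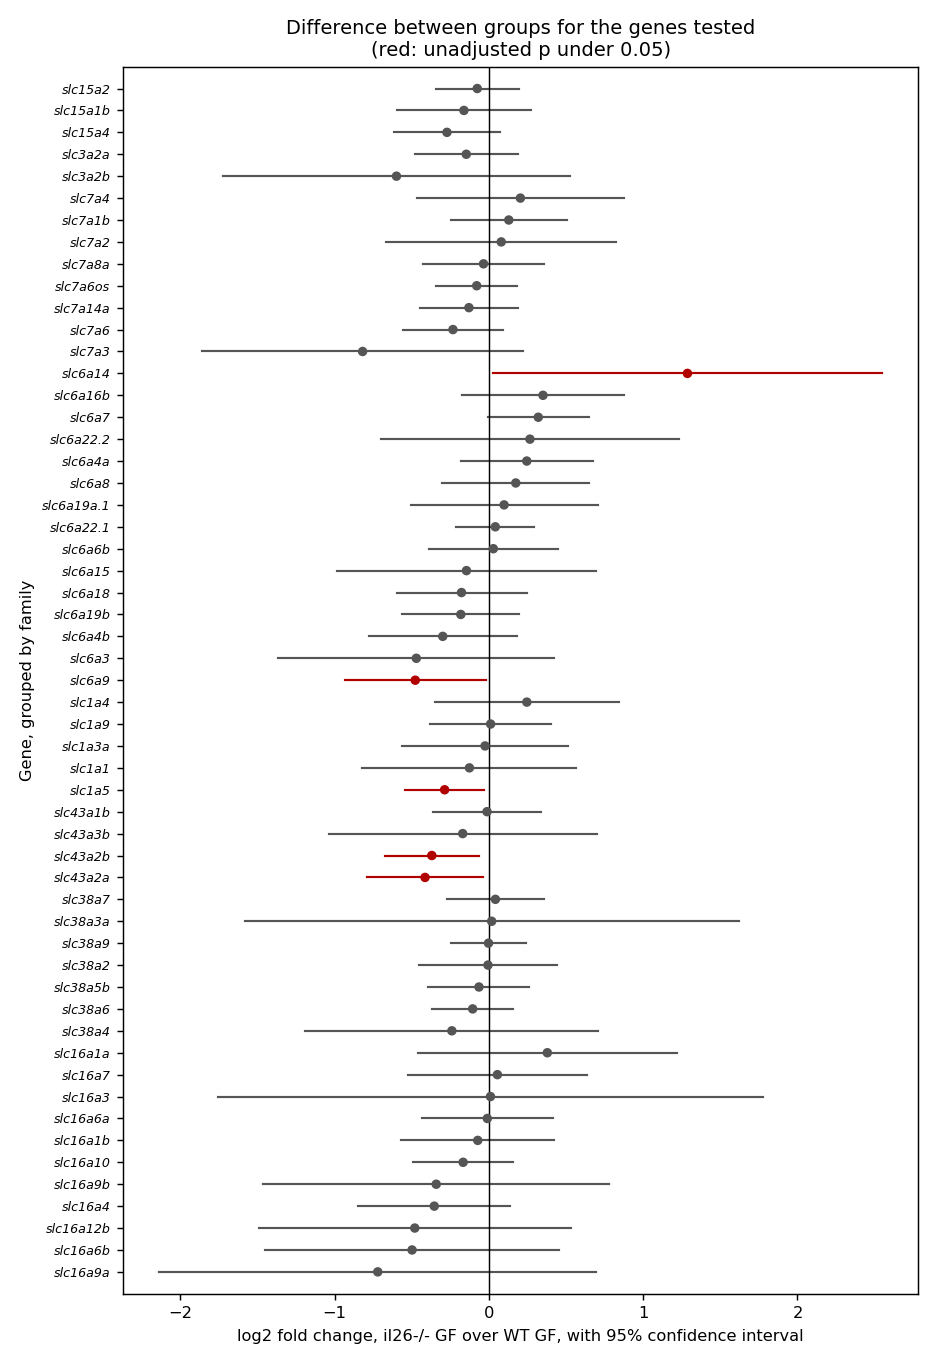
Log2 fold change of il26-/- GF over WT GF for 55 of the 56 members tested, grouped by family, with bars for the 95% confidence interval (edgeR). Red marks the 5 genes with an unadjusted p-value under 0.05, *slc43a2b*, *slc43a2a*, *slc1a5* and *slc6a9* to the left of 0 and *slc6a14* to the right.

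Peptide carriers did not differ in il26-/- GF beyond the spread of the libraries. *slc15a1b*, the brush border carrier for di- and tripeptides, had 3233, 2869 and 1913 CPM in WT GF replicates 1, 2 and 3, and 2345, 2359 and 2460 CPM in il26-/- GF. The il26-/- GF libraries lay close together, inside the range of WT GF, in which replicate 3 was low. This gave a log2 fold change of -0.16 (95% confidence interval -0.59 to 0.27). Without WT GF replicate 3 it was -0.35 (unadjusted p = 0.0111, edgeR), and without WT GF replicate 1 it was 0.0034. *slc15a2*, a high-affinity peptide carrier, ranged from 319 to 381 CPM in WT GF and from 291 to 348 CPM in il26-/- GF, with a log2 fold change of -0.075 (-0.34 to 0.19). *slc15a4*, a lysosomal carrier of histidine and peptides, had 10.9, 13.0 and 13.5 CPM in WT GF and between 9.11 and 12 CPM in il26-/- GF. The groups overlapped for all 3 genes. For *slc15a4* the log2 fold change was -0.27 (-0.62 to 0.072), and -0.39 without il26-/- GF replicate 3 (unadjusted p = 0.0327, edgeR). Without il26-/- GF replicate 2 it was -0.17 (unadjusted p = 0.317, edgeR).

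Sodium-coupled carriers of neutral amino acids in the brush border gave a mixed picture. *slc6a19b*, a counterpart of the mammalian uptake carrier B0AT1, had 1102, 895.5 and 975.5 CPM in WT GF and 832.8, 715.5 and 1072 CPM in il26-/- GF, with a log2 fold change of -0.18 (-0.56 to 0.20). For *slc6a19b* this was -0.35 without il26-/- GF replicate 3 (unadjusted p = 0.0370, edgeR) and -0.057 without il26-/- GF replicate 2. Its paralog *slc6a19a.1* had 340.9, 430.2 and 191.2 CPM in WT GF and 336.4, 352.6 and 341.0 CPM in il26-/- GF, with a log2 fold change of 0.098 (-0.51 to 0.70). WT GF replicate 3 was the low library of *slc6a19a.1*, as of *slc15a1b*, but not of *slc6a19b*. The reads of *slc6a19a.1* were 30.9%, 48.0% and 19.6% of those of *slc6a19b* in WT GF libraries, against 40.4%, 49.3% and 31.8% in the il26-/- GF libraries. The groups overlapped, and in both groups replicate 2 was highest and replicate 3 lowest. Reads of such paralogs could have been split by the counting. *slc6a18*, a further carrier of this kind, ranged from 77.5 to 120 CPM in WT GF and from 76.8 to 100 CPM in il26-/- GF.

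*slc6a14*, which in mammals takes up neutral and cationic amino acids, was the member with an unadjusted p-value under 0.05 that was higher in il26-/- GF. It had 3.31, 3.44 and 1.01 CPM in WT GF replicates 1, 2 and 3, and 10.1, 5.97 and 3.08 CPM in il26-/- GF. Replicate 1 of il26-/- GF was high, replicate 3 of WT GF was low, and il26-/- GF replicate 3 lay below WT GF replicates 1 and 2. The counts behind these levels were 67, 68 and 31 for WT GF, against 82, 234 and 49 for il26-/- GF. On the log2 scale the difference was 1.29 (standard error 0.54, 95% confidence interval 0.024 to 2.55, adjusted p = 0.917, edgeR). The unadjusted p-value from edgeR was 0.0467. Without il26-/- GF replicate 1 the log2 fold change was 0.87 with an unadjusted p-value of 0.160, and without WT GF replicate 3 it was 0.86 with an unadjusted p-value of 0.0930 (edgeR). The unadjusted p-value also passed above 0.05 without il26-/- GF replicate 2, where it was 0.0864. It was 0.0495, 0.0383 and 0.0193 without WT GF replicate 1, WT GF replicate 2 and il26-/- GF replicate 3 (edgeR). DESeq2 gave an unadjusted p-value of 0.00776, and edgeR with total counts only gave 0.0252. With replicate number as a block it was 0.00117 (adjusted p = 0.217, edgeR).

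Facilitated carriers of large neutral amino acids included 2 of the 4 lower genes. *slc43a2b* and *slc43a2a* are counterparts of the mammalian carrier LAT4, which lets branched-chain amino acids, phenylalanine and methionine leave enterocytes across the basolateral membrane. *slc43a2b* had 1331, 1381 and 1073 CPM in WT GF and 871.5, 1041 and 1016 CPM in il26-/- GF. Each il26-/- GF library lay below each WT GF library, with a gap from 1041 to 1073 CPM. Its log2 fold change was -0.37 (standard error 0.13, 95% confidence interval -0.67 to -0.067, adjusted p = 0.833, edgeR), a ratio of 0.774. *slc43a2a* had 47.3, 65.8 and 64.2 CPM in WT GF and 37.9, 50.9 and 43.9 CPM in il26-/- GF. WT GF replicate 1 lay below il26-/- GF replicate 2, so the groups overlapped. The log2 fold change of *slc43a2a* was -0.41 (standard error 0.16, 95% confidence interval -0.79 to -0.037, adjusted p = 0.870, edgeR). The unadjusted p-values were 0.0232 for *slc43a2b* and 0.0352 for *slc43a2a* (edgeR). Leaving out WT GF replicate 1, WT GF replicate 2 or il26-/- GF replicate 1 raised the unadjusted p-value of *slc43a2b* to 0.0728, 0.0908 and 0.0840. It was 0.00415, 0.0379 and 0.0411 without WT GF replicate 3, il26-/- GF replicate 2 and il26-/- GF replicate 3 (edgeR). For *slc43a2a* the unadjusted p-value was 0.108 without WT GF replicate 2 and 0.0931 without WT GF replicate 3. It was 0.114 without il26-/- GF replicate 1 and 0.0867 without il26-/- GF replicate 3. Without WT GF replicate 1 it was 0.00688, and without il26-/- GF replicate 2 it was 0.0215 (edgeR). With replicate number as a block, the unadjusted p-values were 0.0307 for *slc43a2b* and 0.0032 for *slc43a2a* (edgeR).

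Levels of 2 other carriers of large neutral and aromatic amino acids overlapped between the groups. *slc43a1b*, a counterpart of the mammalian carrier LAT3, had 11.8, 13.8 and 11.1 CPM in WT GF and 14.3, 12.04 and 10.3 CPM in il26-/- GF. The log2 fold change of *slc43a1b* was -0.012 (-0.36 to 0.34). *slc16a10*, a basolateral carrier of aromatic amino acids, had 146.6, 166.6 and 118.0 CPM in WT GF and 137.0, 125.9 and 121.2 CPM in il26-/- GF. Its log2 fold change was -0.17 (-0.49 to 0.16), with -0.29 for *slc16a10* without WT GF replicate 3 (unadjusted p = 0.0339, edgeR) and -0.043 without WT GF replicate 2. Whether *slc43a1b* or *slc16a10* differed from *slc43a2b* in its response was not tested.

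The heterodimer subunits *slc3a2a*, *slc3a2b* and *slc7a8a* varied between pools more than between genotypes. *slc3a2a*, a heavy chain, had 211.8, 187.7 and 157.9 CPM in WT GF and 154.6, 156.0 and 192.8 CPM in il26-/- GF, with a log2 fold change of -0.15 (-0.48 to 0.19). Its paralog *slc3a2b* had 30.1, 75.8 and 24.0 CPM in WT GF and 19.7, 43.4 and 21.1 CPM in il26-/- GF. Replicate 2 was high in both groups, and the reads of *slc3a2b* were 40.4% of those of *slc3a2a* in WT GF replicate 2 and 27.8% in il26-/- GF replicate 2, against 10.9% to 15.2% in the other 4 libraries. The log2 fold change of *slc3a2b* was -0.60 (-1.72 to 0.52), 0.084 without WT GF replicate 2 and -1.08 without il26-/- GF replicate 2. With replicate number as a block it was -0.54 (unadjusted p = 0.0062, adjusted p = 0.358, edgeR). *slc7a8a*, a light chain that exchanges neutral amino acids at the basolateral membrane, had 228.5, 218.3 and 303.0 CPM in WT GF and 219.4, 221.2 and 291.3 CPM in il26-/- GF. Here replicate 3 was high in both groups, and the log2 fold change was -0.035 (-0.43 to 0.36). *slc7a6* had between 8.88 and 9.56 CPM in WT GF and between 6.64 and 8.90 CPM in il26-/- GF. The groups overlapped, and the log2 fold change of *slc7a6* was -0.23 (-0.56 to 0.091). The strand setting of the counting is not given in the sources used here, so reads of *slc7a6* and of *slc7a6os* cannot be told apart where the genes overlap. The light chain genes *slc7a5* and *slc7a7* had at most 2 counts in any library, at or below the level that 3 counts allow.

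Carriers of acidic amino acids and exchangers of neutral ones belong to the slc1 family. *slc1a1*, the epithelial carrier of glutamate, aspartate and cysteine, had 184.4, 148.3 and 296.9 CPM in WT GF and 160.5, 154.9 and 261.5 CPM in il26-/- GF. As with *slc7a8a*, replicate 3 was the high library of both groups, and the log2 fold change was -0.13 (-0.82 to 0.57). *slc1a5*, whose mammalian counterpart ASCT2 exchanges glutamine, had 22.4, 24.0 and 19.9 CPM in WT GF and 17.2, 19.5 and 17.4 CPM in il26-/- GF. The groups did not overlap, with 19.5 CPM as the highest il26-/- GF library and 19.9 CPM as the lowest WT GF library. This was a log2 fold change of -0.29 (standard error 0.11, 95% confidence interval -0.54 to -0.033, adjusted p = 0.869, edgeR). The unadjusted p-value of *slc1a5* was 0.0317, and it lay between 0.0862 and 0.128 without WT GF replicate 1, WT GF replicate 2, il26-/- GF replicate 1 or il26-/- GF replicate 3 (edgeR). It was 0.0791 in DESeq2. The related exchanger *slc1a4* had 20.3, 42.3 and 37.8 CPM in WT GF and 45.8, 38.0 and 35.8 CPM in il26-/- GF. WT GF replicate 1 was the low library, and without it the log2 fold change of *slc1a4* was -0.0055 in place of 0.25. The reads of *slc1a4* were 90.8% to 190% of those of *slc1a5* in WT GF and 195% to 266% in il26-/- GF. This ratio was chosen after its values were seen and was given no test.

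Carriers of system A, system N and the lysosome belong to the slc38 family, and the 7 tested had a median log2 fold change of -0.0059. *slc38a9*, which in mammals reports lysosomal arginine to the growth regulator mTORC1, had the narrowest interval of the 56 members. It had 31.3, 26.7 and 29.8 CPM in WT GF and 31.9, 27.2 and 28.9 CPM in il26-/- GF, with a log2 fold change of -0.0025 (-0.24 to 0.24). *slc38a2*, a glutamine and alanine carrier induced by amino acid shortage in mammals, had 49.5, 72.5 and 47.0 CPM in WT GF and 47.0, 64.4 and 56.4 CPM in il26-/- GF. *slc38a5b* ranged from 99.1 to 138 CPM in WT GF and from 102 to 122 CPM in il26-/- GF. *slc38a4*, known as a carrier of the liver in mammals, had 92.7, 255.9 and 90.4 CPM in WT GF and 94.95, 143.1 and 132.9 CPM in il26-/- GF. WT GF replicate 2 stood apart. The log2 fold change of *slc38a4* was -0.24 (-1.19 to 0.71) with that library and 0.44 without it (unadjusted p = 0.0489, edgeR). Of the 74 members whose symbols were found in RefSeq's annotation of another assembly (GRCz12tu), *slc38a2* and *slc38a4* shared the chromosome of *il26*.

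Among carriers of cationic amino acids, *slc7a3* had 53.5, 133.6 and 41.8 CPM in WT GF and 28.8, 57.1 and 42.7 CPM in il26-/- GF. WT GF replicate 2 was the high library. With it the log2 fold change of *slc7a3* was -0.82 (-1.86 to 0.22), and without it -0.13. Without WT GF replicate 3 it was -1.11 (unadjusted p = 0.0283, edgeR). *slc7a1b*, *slc7a4* and *slc7a14a* had log2 fold changes between -0.13 and 0.20, and *slc7a2* had one of 0.080 (-0.67 to 0.83).

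Carriers of glycine, proline and neurotransmitters belong to slc6a. *slc6a9*, the glycine carrier GlyT1 of mammals, had 79.0, 79.3 and 52.4 CPM in WT GF and 40.8, 51.4 and 58.6 CPM in il26-/- GF. WT GF replicate 3 lay below il26-/- GF replicate 3, so the groups overlapped. In edgeR the log2 fold change was -0.48 (standard error 0.20, 95% confidence interval -0.93 to -0.021, adjusted p = 0.893, edgeR). The unadjusted p-value was 0.0424, and it was 0.127, 0.124, 0.135 and 0.0827 without WT GF replicate 1, WT GF replicate 2, il26-/- GF replicate 1 and il26-/- GF replicate 2 (edgeR). Without WT GF replicate 3 the log2 fold change of *slc6a9* was -0.65 with an unadjusted p-value of 0.00386 (edgeR). *slc6a7*, the proline carrier PROT of mammals, had 10.2, 8.36 and 10.9 CPM in WT GF and 12.2, 13.4 and 11.2 CPM in il26-/- GF. The groups did not overlap, and the log2 fold change was 0.32 (-0.0072 to 0.65, unadjusted p = 0.0540, edgeR). The adjusted p-value of *slc6a7* was 0.946 (edgeR). Its unadjusted p-value was 0.0306 without WT GF replicate 3 and 0.0414 without il26-/- GF replicate 3 (edgeR). It lay between 0.0797 and 0.184 without WT GF replicate 1, WT GF replicate 2, il26-/- GF replicate 1 or il26-/- GF replicate 2 (edgeR). DESeq2 with all libraries gave *slc6a7* an unadjusted p-value of 0.0949. Scaled by total counts only, its groups overlapped. *slc6a4a*, a serotonin carrier, had 35.1, 27.7 and 41.5 CPM in WT GF and 47.0, 33.2 and 44.3 CPM in il26-/- GF, with a log2 fold change of 0.25 (-0.18 to 0.67), which was 0.11 without WT GF replicate 2 and 0.39 without WT GF replicate 3. Its paralog *slc6a4b* had one of -0.30 (-0.78 to 0.18). *slc6a16b* had 12.7, 17.3 and 23.0 CPM in WT GF and 22.6, 18.9 and 26.6 CPM in il26-/- GF. Its log2 fold change was 0.35 (-0.17 to 0.88), and 0.59 without WT GF replicate 3 (unadjusted p = 0.0194, edgeR). In that fit 10.2% of all genes passed an unadjusted 0.05. For *slc6a16b* the log2 fold change was 0.17 without WT GF replicate 1 (unadjusted p = 0.410, edgeR). Without il26-/- GF replicate 3 it was 0.22 (unadjusted p = 0.404, edgeR). The taurine carrier *slc6a6b* and the creatine carrier *slc6a8* had log2 fold changes of 0.029 (-0.39 to 0.45) and 0.17 (-0.30 to 0.65).

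The slc16a family includes carriers of lactate and related acids. Of its 12 genes tested, 0 had an unadjusted p-value under 0.05 in edgeR's test. Their log2 fold changes ranged from -0.72 for *slc16a9a* to 0.38 for *slc16a1a*. *slc16a6a*, which exports ketone bodies from the zebrafish liver, had 27.8, 42.4 and 37.9 CPM in WT GF and 31.5, 33.1 and 42.7 CPM in il26-/- GF, with a log2 fold change of -0.010 (-0.43 to 0.41). *slc16a1a*, a counterpart of the mammalian lactate carrier MCT1, had 0.987, 0.962 and 2.09 CPM in WT GF and 1.35, 1.84 and 2.07 CPM in il26-/- GF. Without WT GF replicate 3, its high WT GF library, the log2 fold change of *slc16a1a* was 0.88 (unadjusted p = 0.0206, edgeR), and without WT GF replicate 2 it was 0.20. *slc16a6b*, the paralog of *slc16a6a*, had 22.16, 42.5 and 15.1 CPM in WT GF and 17.2, 25.9 and 12.4 CPM in il26-/- GF. In each group replicate 2 was highest and replicate 3 lowest.

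The members varied more between pools than most genes did. The median range of log2 CPM over the 3 libraries was 0.60 in WT GF and 0.45 in il26-/- GF for the 56 members, and 0.32 and 0.34 for all genes tested. In WT GF this range exceeded the difference between the group means for 52 of the 56 members (92.9%), against 85.1% of all genes tested. WT GF replicate 2 was the library with the highest level for 24 of the 56 members (42.9%), and for 16.8% of all genes tested. It stood at least 1.2 times above the next library for 11 members (19.6%), against 3.37% of all genes tested. These were *slc6a19a.1*, *slc7a3*, *slc38a4*, *slc3a2b*, *slc43a3b* and 6 genes of slc16a, *slc16a6b*, *slc16a9b*, *slc16a3*, *slc16a12b*, *slc16a4* and *slc16a1b*. For *slc7a3* the ratio to the next library was 2.34.

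**Figure D3:**
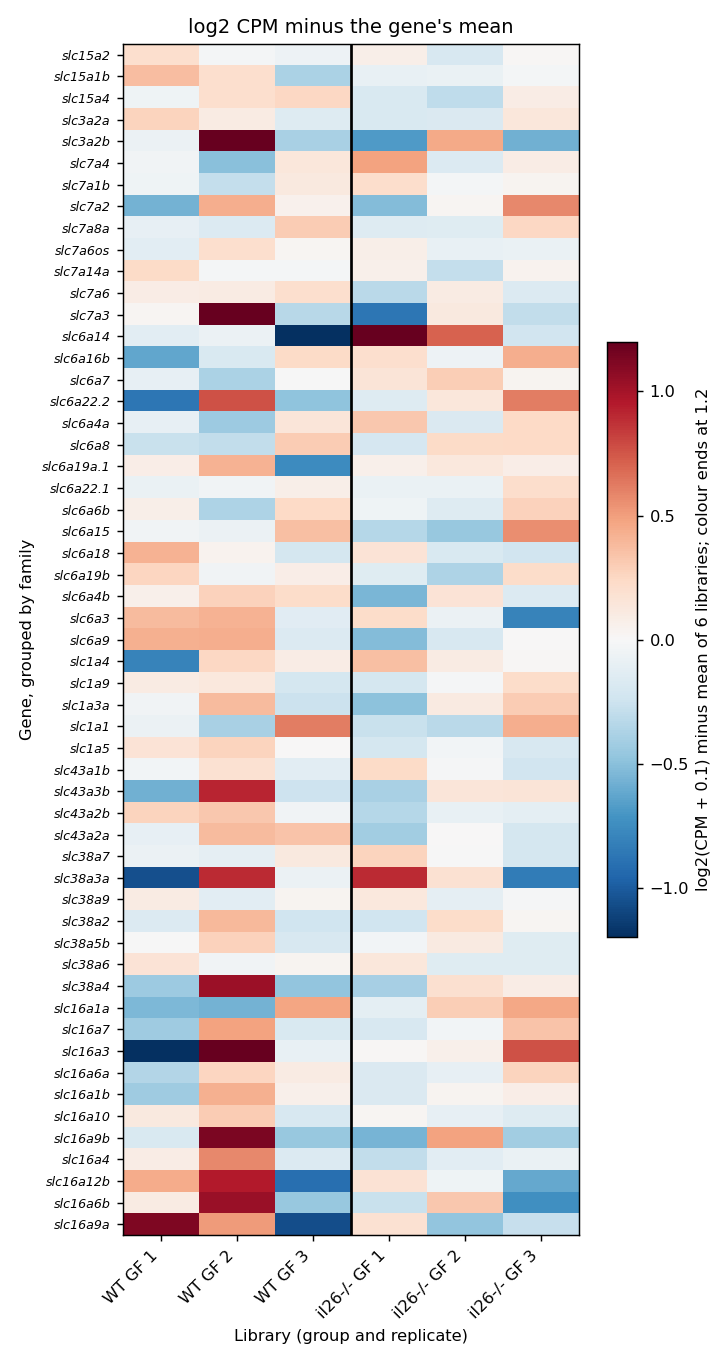
Colour gives log2(CPM + 0.1) of 55 of the 56 members tested in each library minus the gene's mean over the 6 libraries, with the colour scale ending at 1.2 on either side. The column of WT GF replicate 2 is red for *slc7a3*, *slc3a2b*, *slc38a4*, *slc43a3b* and several genes of slc16a, and the rows of *slc1a1* and *slc7a8a* are red in replicate 3 of both groups.

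WT GF replicate 2 also held much RNA of pancreas and liver. Exocrine pancreas markers summed to 62490 CPM in it and to 38160 to 52170 CPM in the other libraries, and 11 of the 13 markers tested were highest in it. Hepatocyte markers summed to 2731, 8772 and 5053 CPM in WT GF and to 5018, 6397 and 8696 CPM in il26-/- GF. WT GF replicate 2 was the highest library for 5 of the 11 hepatocyte markers tested. A few members, named after their values were seen, ran through the libraries in a similar order to the hepatocyte sum. *slc6a22.2* had 11.3, 34.9 and 14.7 CPM in WT GF and 18.4, 22.7 and 31.5 CPM in il26-/- GF, while *slc6a22.1*, the gene closest to it in name, stayed between 35.7 and 43.7 CPM. *slc7a2*, a cationic carrier known from liver in mammals, had 8.24, 16.6 and 12.7 CPM in WT GF and 8.49, 12.4 and 18.2 CPM in il26-/- GF. *slc43a3b*, a counterpart of a mammalian purine carrier, had 18.2, 51.0 and 22.8 CPM in WT GF and 20.7, 30.03 and 30.3 CPM in il26-/- GF. In *slc7a3*, *slc3a2b* and *slc16a6b*, il26-/- GF replicate 3 lay below il26-/- GF replicate 2. For *slc38a4* these libraries were closer, with 132.9 CPM in il26-/- GF replicate 3 and 143.1 CPM in il26-/- GF replicate 2. The part of liver and pancreas RNA in these levels was not tested.

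**Figure D4:**
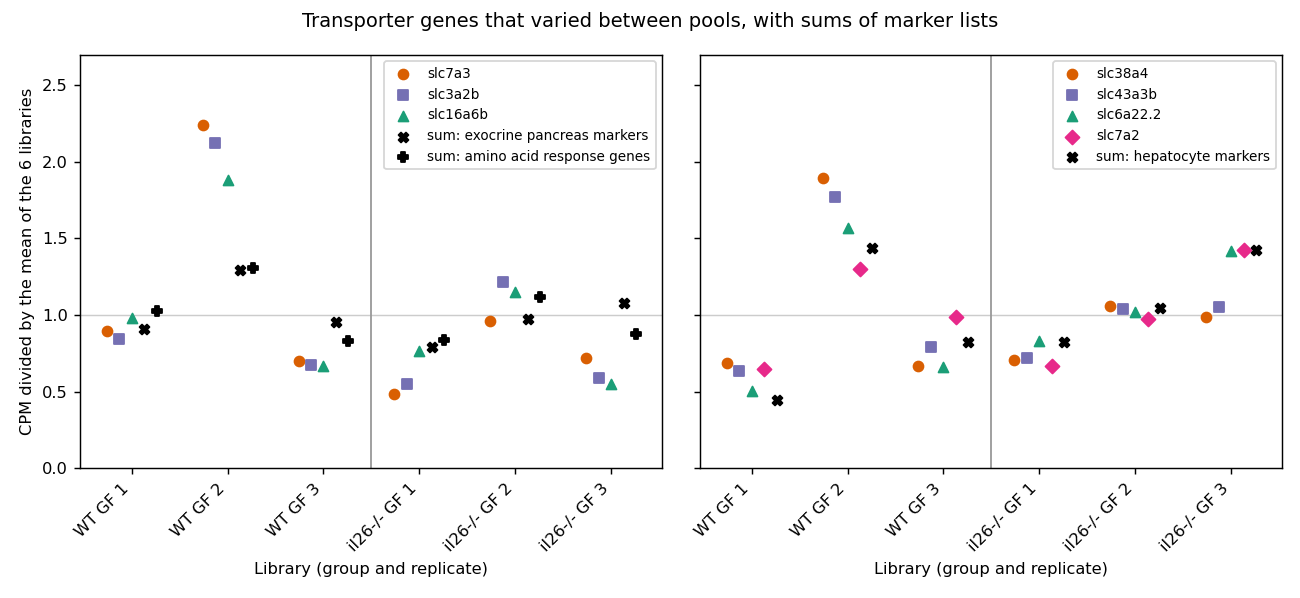
CPM of single members, and summed CPM of gene lists in black, each divided by its mean over the 6 libraries. The lists are exocrine pancreas markers and amino acid response genes outside the families on the left, and hepatocyte markers on the right. On the left, *slc7a3*, *slc3a2b* and *slc16a6b* stand high in WT GF replicate 2. On the right, *slc6a22.2* and *slc7a2* lie near the hepatocyte sum in both groups, and *slc38a4* and *slc43a3b* stand above it in WT GF replicate 2.

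The carriers that ATF4, the transcription factor of the amino acid shortage response, is known to induce in mammals are among the members. Of 11 such genes, 9 were tested, and 2 of these, *slc1a5* and *slc6a9*, were lower and 0 higher at an unadjusted p-value under 0.05 in edgeR's test, against 2.27% of all genes lower and 3.06% higher. Both calls were lost in 4 of the 6 fits without 1 library, as given above. The median log2 fold change of the 9 was -0.15. WT GF replicate 2 was the highest library for 5 of the 9, and for 16.8% of all genes tested. Outside the families, 16 genes of this response were tested, with a median log2 fold change of -0.050. At an unadjusted p-value under 0.05 in edgeR's test, 1 of the 16 was higher and 1 lower, against the same shares of all genes. *sesn2*, a leucine-binding regulator of mTORC1 at 3.21 to 4.59 CPM, was higher (log2 fold change 0.41, adjusted p = 0.862, edgeR). *psph*, an enzyme of serine synthesis, was lower (-0.22, adjusted p = 0.909, edgeR). The response gene *chac1*, a glutathione-degrading enzyme, had 237.2, 415.5 and 73.8 CPM in WT GF and 106.4, 275.1 and 101.1 CPM in il26-/- GF. As with *slc3a2b* and *slc16a6b*, its replicate 2 was highest in each group. *trib3*, another gene of this response, had 38.7, 49.0 and 24.8 CPM in WT GF and 24.0, 43.2 and 25.1 CPM in il26-/- GF. Replicate 2 was again highest in each group. WT GF replicate 2 was the highest library for 8 of the 16 genes, and not all of the list had this order. *atf4a* was highest in replicate 3 of each group (134.6 CPM in WT GF, 163.5 CPM in il26-/- GF). *asns* was highest in replicate 1 of each group (49.25 CPM in WT GF, 50.43 CPM in il26-/- GF).

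Partners of the carriers and the peptidases that feed them were also counted. Of 18 such genes tested, 4 had log2 fold changes above 0 and 14 below 0, with a median of -0.070. Over all genes tested, 50.4% had a log2 fold change below 0. The brush border aminopeptidase gene *anpepb* ranged from 3177 to 4889 CPM in WT GF and from 3300 to 4373 CPM in il26-/- GF. At an unadjusted p-value under 0.05 in edgeR's test, *xpnpep2*, an aminopeptidase that cleaves before proline, was lower (log2 fold change -0.37, adjusted p = 0.906) and *npepps*, a cytosolic aminopeptidase, was higher (1.14, adjusted p = 0.565). Among all genes tested, 2.27% were lower and 3.06% higher at that p-value. *npepps* had 5.63, 7.65 and 5.74 CPM in WT GF and 15.5, 8.21 and 18.7 CPM in il26-/- GF, without overlap. This held for 4.81% of all genes tested in that direction.

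The 20 members that were not tested had at most 18 counts in any library. Of these, 5 had 0 counts in all 6 libraries, the GABA carrier *slc6a1a*, the glycine carrier *slc6a5*, the glutamate carrier *slc1a2a*, *slc38a8a* and *slc43a1a*, which allows at most the level of 3 counts per library. Carriers of neurons and glia made up many of the others, among them *slc6a1b*, *slc6a11a*, *slc6a17*, *slc1a2b* and *slc1a3b*. The dopamine carrier *slc6a3* was tested at 0.554 to 0.861 CPM in WT GF and 0.314 to 0.738 CPM in il26-/- GF.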

How the data were processed

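RNA of dissected guts from 3 WT GF and 3 il26-/- GF pools was measured by stranded mRNA sequencing with paired-end reads. The authors checked reads with FastQC 0.11.8, and aligned them to danRer11; the deposited table holds unnormalized counts by gene symbol. The aligner, counting tool, annotation and strand setting are not given in the sources used here. Each deposited column was matched through the library name in the labels, and 0 columns were left over.

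Here, filterByExpr kept 11062 of 15419 genes. Libraries were scaled by TMM, and the groups were compared in edgeR 4.0.16 (R 4.3.3 with limma 3.58.1) by the quasi-likelihood method, with no block for replicate number. P-values were adjusted by Benjamini-Hochberg across the genes kept. Intervals are 95% confidence intervals from the fold change, its F statistic and the t distribution. Log2 CPM for ranges used a prior count of 2. The test was checked on simulated data. Results were recomputed with DESeq2 1.42.0, with its size factors inside edgeR, with library totals alone as scaling, with looser (1 count in any library) and stricter (10 counts in each library) filters, with replicate number as a block, and without each library. The members, marker lists and genes to name were chosen with earlier results of these data known. The genes named are, per family, the 2 with the highest mean CPM, the 5 with the smallest p-value in each direction, and best-known intestinal carriers. Genes named for low counts, for their family or for differences between pools, and the 1.2-fold margin used there, were chosen after their values were seen. No table of transcript lengths, promoters or proteins was used, so sequences are not shown. P-values weigh the difference between the groups against the spread between pools within a group. They do not cover a difference between the parental tanks. The values of 1 member and 1 partner gene are not reported here singly.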

Additional observations from a re-analysis of the deposited data

How the results depend on the processing

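Each of the 24 genes chosen by the naming rule was recomputed under 12 alternatives, and 233 of the 288 values kept their direction and side of an unadjusted p-value of 0.05. With the replicate number as a block, 8 members had an unadjusted p-value under 0.05 in place of 5, and with total counts only 3 did. The replicate block called 788 of all genes, or 7.12%. Deviations from the group means correlated by 0.179, 0.0957 and 0.304 for libraries of replicates 1, 2 and 3. Unlike numbers gave -0.32 to 0.167, and each library but il26-/- GF replicate 2 correlated best with its own number, which is a hint from the data and not the design. Deviations within a group sum to 0, so these values depend on each other and cannot decide whether the numbers pair the libraries. The labels give no such pairing, and none was used in the main test. Under the block, *slc3a2b*, *slc7a3*, *slc16a6b* and *slc6a4a* passed an unadjusted 0.05 and *slc6a9* no longer did. Leaving out each library in turn gave 0 to 13 members at an unadjusted p-value under 0.05 and 4 to 14 members without overlap, against 3 with all libraries. Over all genes tested, these fits gave 3.95% to 10.2% at that p-value and 16.6% to 28.9% without overlap, against 9.64% with all libraries. The number with an adjusted p-value under 0.05 was 0 under every alternative, and the median log2 fold change ranged from -0.15 to 0.016. With total counts only, the median log2 fold change of all genes moved to 0.084. The log2 fold change then turned to 0.036 for *slc7a8a*, 0.016 for *slc15a2*, 0.072 for *slc16a6a* and 0.035 for *slc38a5b*, each below that median. Across the fits without 1 library, it ranged from -0.0055 to 0.45 for *slc1a4*, from -0.35 to 0.0034 for *slc15a1b*, from -0.13 to 0.014 for *slc15a2*, from -1.08 to 0.084 for *slc3a2b*, from -0.16 to 0.13 for *slc16a6a*, from -0.49 to 0.44 for *slc38a4*, from -0.17 to 0.078 for *slc38a5b*, from -0.41 to 0.21 for *slc1a1*, from -0.17 to 0.37 for *slc6a19a.1* and from -0.18 to 0.13 for *slc7a8a*. The cause of the changes between these fits was not tested. The smallest library, il26-/- GF replicate 1, limits the precision for genes under about 1 CPM.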
